A study of Mus musculus with 12 samples.

Results

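The comparison described here follows aggregates of HC11 cells with a knockdown of Snail1 through an in vitro migration assay. HC11 is an established mouse mammary epithelial cell line. The members are the 3 knockdown libraries collected at 36 h and the 3 knockdown libraries collected at 0 h, 6 of the 12 libraries of the series, and were taken by their titles. The other 6 libraries are HC11 aggregates labelled WT and scr, 3 at each time, and serve here only as the values set beside the knockdown. All 4 groups shared the same preparation: cells were sorted by flow cytometry, left to aggregate overnight in RPMI medium with serum, EGF and insulin, and then entered the assay. The labels name neither the knockdown construct nor the number of clones. They also do not give the cultures behind the replicates, so a p-value here reflects the spread among these libraries alone, which may be technical. For control 36 h library 4 the title has the prefix "mix", whose meaning is not given. The authors' deposited group means hold that library apart from the other 2 of its group.

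Snail1, the product of Snai1, is a zinc-finger repressor that binds E-box sequences and is best known for silencing epithelial genes such as Cdh1 during the epithelial-mesenchymal transition. In collective migration, cells move as a connected sheet or cluster and keep cell-cell junctions, and mammary epithelium uses this mode as ducts extend. HC11 cells carry basal and luminal keratins together and can be driven towards milk protein expression by hormones.

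Snai1 was low in every knockdown library. It stood at 0.58, 0.79 and 0.48 TPM (a transcript level scaled for gene length and for the library total) in libraries 1, 2 and 3 at 0 h and at 0.58, 0.44 and 0.20 TPM at 36 h. The values overlapped between the times, and the exact two-sided permutation test gave p = 0.3, where the smallest p that 3 against 3 libraries allow is 0.1. Control libraries held 1.34 to 3.92 TPM, all above the knockdown libraries. Within the knockdown, then, no change of the targeted gene over the 36 h was detectable, and the comparison concerns cells in which Snai1 was already low at the start.

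The labelled cell type was checked against marker genes. The 6 epithelial markers (Cdh1, Epcam, Krt8, Krt18, Krt14 and Krt5) summed to 3325 to 10280 TPM at 0 h and 19470 to 25460 TPM at 36 h, most of it from Krt14 and Krt5. Not every marker followed the sum. Epcam held 769, 214 and 833 TPM at 0 h and 483, 498 and 486 TPM at 36 h. Krt18 held 53.3, 8.43 and 58.3 TPM and then 41.4, 40.1 and 32.6 TPM. Of 10 fibroblast markers, 6 stayed under 1 TPM in all 6 libraries and 1 was listed at 0, and their sum was 4.98 to 16.65 TPM at 0 h and 8.02 to 13.95 TPM at 36 h. The 12 immune markers summed to 12.4 to 29.8 and 14.6 to 19.3 TPM, the larger share being Cd14 and Cd68, and the 10 endothelial and adipocyte markers to 8.70 to 18.3 and 9.44 to 15.5 TPM. Ptprc, Cd3e and Tyrobp, which mark blood cells, did not exceed 0.17 TPM in any of the 6. Other immune markers were higher, Lyz2 at up to 2.53 TPM and Cd74 at up to 1.07 TPM. Fcer1g reached 1.73 TPM and Csf1r 1.29 TPM, both in 0 h library 2. These are bulk libraries, in which fewer cells of a type and less RNA per cell cannot be told apart.

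Knockdown 0 h library 2 stood apart from the other 5. Mitochondrially encoded genes took 13.99% of its TPM, against 1.975% to 6.154% in the other 5, cytosolic ribosomal protein genes 10.74%, against 4.589% to 5.101%, and genes shorter than 300 bases 10.55%, against 3.241% to 5.234%. Median-of-ratios scaling gave it a factor of 0.5066, where the other 5 had 0.902 to 1.087. Knockdown 0 h library 3 had 27715 genes above 0 TPM, against 21221 to 23427. Depth cannot be read from TPM and is unknown. Results below are with all libraries unless said otherwise, and list counts and medians are also given without library 2 of the 0 h group.

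Between 0 h and 36 h the knockdown aggregates changed mainly upwards. Each change below is a difference of log2(TPM + 1), a log2 fold change that is too small for genes of low level. It comes from limma fitted on all 12 libraries, and a gene is called at a Benjamini-Hochberg adjusted p under 0.05 over 14426 tested genes. Of these, 162 were called (1.12%), 144 higher at 36 h (0.998%) and 18 lower (0.125%). The rises were led by Id3, Id1 and Id2, by the stefin protease inhibitors Stfa2, Stfa2l1, Cstdc5 and Cstdc6, and by the keratins Krt16, Krt6a and Krt6b. Leaving out predicted genes, Rik clones and genes without a symbol, the largest falls were those of the calcium-binding protein S100g, the protease Klk6, the histone H2ac6 and the WAP-domain proteins Wfdc18 and Wfdc17. The predicted genes Gm56328 (34.96, 6.13 and 25.2 TPM at 0 h) and Gm25636 (8.51, 23.3 and 10.4 TPM) were also called lower and are listed at 0 in all 36 h libraries, so no fold is given.

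The count depended on single libraries. None of 38 called genes picked by a fixed rule of size, overlap, list and p reversed its direction in any of 27 alternative fits. The 38 had no overlap between the times, so leaving out a library could not reverse them. With only the knockdown groups fitted, 29 of the 38 calls were lost. Without knockdown 0 h library 2, 408 of 14227 genes were called (2.87%), 278 higher (1.95%) and 130 lower (0.914%), among them 157 of the 162. Without knockdown 0 h library 1 it was again 162, of which 121 were shared. Without knockdown 0 h library 3, the count was 1572 of 14276 (11%), 1411 higher (9.88%) and 161 lower (1.13%), with 161 of the 162 among them. Without any 1 of the 36 h knockdown libraries it was 46 to 57, and without any 1 of the control libraries, which enter through the shared estimate of the spread and the filter on low values, it was 100 to 117. The median change of all genes tested was 0.33, against 0.07 without library 2, 0.51 without library 3 and 0.00 after median-of-ratios scaling, so a value near 0.33 is no change relative to the other genes. With that scaling 240 genes were called (1.66%), 176 higher (1.22%) and 64 lower (0.444%), and 118 of the 162 remained. The share of rises among the calls was then 73.3%, against 88.9% among the 162. In all, 115 genes (104 higher, 11 lower) passed with all libraries, without library 2, without library 3 and with scaling, and 38 (35 higher, 3 lower) passed in each of the 12 fits that leave out 1 library.

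**Figure D1:**
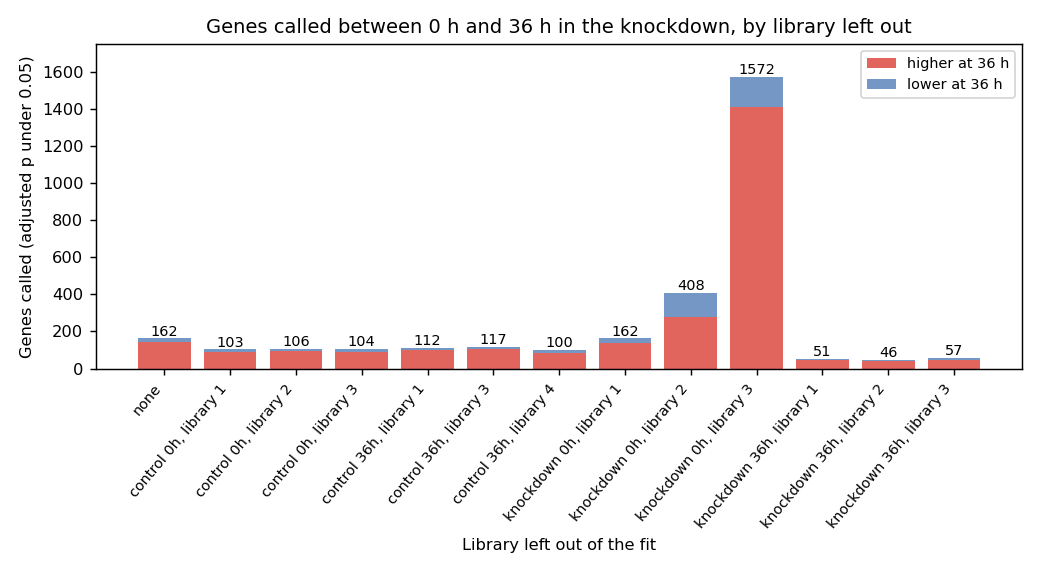
Number of genes called between 0 h and 36 h in the knockdown (y axis) in the fit of all libraries and in each fit that leaves out 1 library (x axis), higher genes in red and lower genes in blue. The bars without knockdown 0 h library 2 (408) and library 3 (1572) stand above the others, and the 3 without a 36 h knockdown library (51, 46 and 57) are the lowest.

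The Id genes encode helix-loop-helix proteins that lack a DNA-binding region, hold back differentiation factors and are classical targets of BMP signalling. Id3 (ENSMUSG00000007872) rose from 6.19, 2.74 and 6.43 TPM at 0 h to 306, 324 and 274 TPM at 36 h, a change of 5.69 (SE 0.26, adjusted p = 1.52e-06). Id1 (ENSMUSG00000042745) rose from 27.8, 21.3 and 28.2 TPM to 352, 334 and 288 TPM, a change of 3.61 (SE 0.18, adjusted p = 1.52e-06). Id2 (ENSMUSG00000020644) rose from 32.6, 29.0 and 30.7 TPM to 323, 351 and 400 TPM, a change of 3.49 (SE 0.17, adjusted p = 1.52e-06). In each of these 3 genes every 36 h library lay far above every 0 h library, and library 2 was the lowest at 0 h. Without library 2 of 0 h the changes of Id3, Id1 and Id2 were 5.37, 3.49 and 3.45. Id4, the remaining family member, was already at 143, 92.3 and 117 TPM and held 114, 140 and 122 TPM at 36 h, so its groups overlapped (0.11, adjusted p = 0.726).

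Id1 and Id3 also rose in control, by 2.86 and 5.61, and Id2 by 1.92. Id3 stood at 261 to 291 TPM in control at 36 h, within or near the knockdown range, whereas Id2 reached 152 to 179 TPM there against 323 to 400 TPM in the knockdown. The rise of Id2 was larger by 1.57 in the knockdown (adjusted p = 0.127 for the difference of the changes), which did not pass with all libraries and passed without knockdown 0 h library 2 (1.53, adjusted p = 0.00833).

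Other genes of BMP signalling were looked up as a family after the Id values had been seen, so no test is made over them. Of 18 measured ligands, receptors, Smads and antagonists, 3 were called higher (0.998% of all genes were) and 15 had a positive change (74.1% of all genes did). Their median was 0.46, against 0.33 for all genes. Without library 2 the same number were called higher (1.95% of all genes) and the median was 0.19, against 0.07. The 3 were antagonists or inhibitors. Sostdc1, a secreted BMP and Wnt antagonist, rose from 60.1, 28.9 and 48.8 TPM to 235, 276 and 221 TPM (2.44, adjusted p = 0.000549). Follistatin, Fst, which binds activin and BMPs, rose from 14.98, 10.5 and 11.8 TPM to 42.6, 46.3 and 43.5 TPM (1.76, adjusted p = 0.00224). The inhibitory Smad6 rose from 2.28, 1.27 and 2.42 TPM to 5.62, 5.52 and 4.33 TPM (1.06, adjusted p = 0.0486), and its call was lost in 18 of 27 alternative fits. The 0 h and 36 h values of these 3 genes did not overlap. The receptor Bmpr1a and the signal transducers Smad1, Smad5 and Smad4 were not called. Neither was Smad7, the other inhibitory Smad, at 1.21, 2.30 and 1.29 TPM and then 2.27, 2.39 and 1.54 TPM.

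Of the 26 TGF-beta target genes on the list, 4 were called higher (Id1, Id2, Id3 and Smad6), where 0.998% of all genes were, and none lower. The median change was 0.55, against 0.33 for all genes. Without library 2, 4 were higher and 2 lower (1.95% and 0.914% of all genes), with a median of 0.22. These 4 are better known as BMP targets. Ccn2, a matrix-associated TGF-beta target, held 1.36 to 6.02 TPM at 0 h and 4.87 to 8.34 TPM at 36 h (adjusted p = 0.294).

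**Figure D2:**
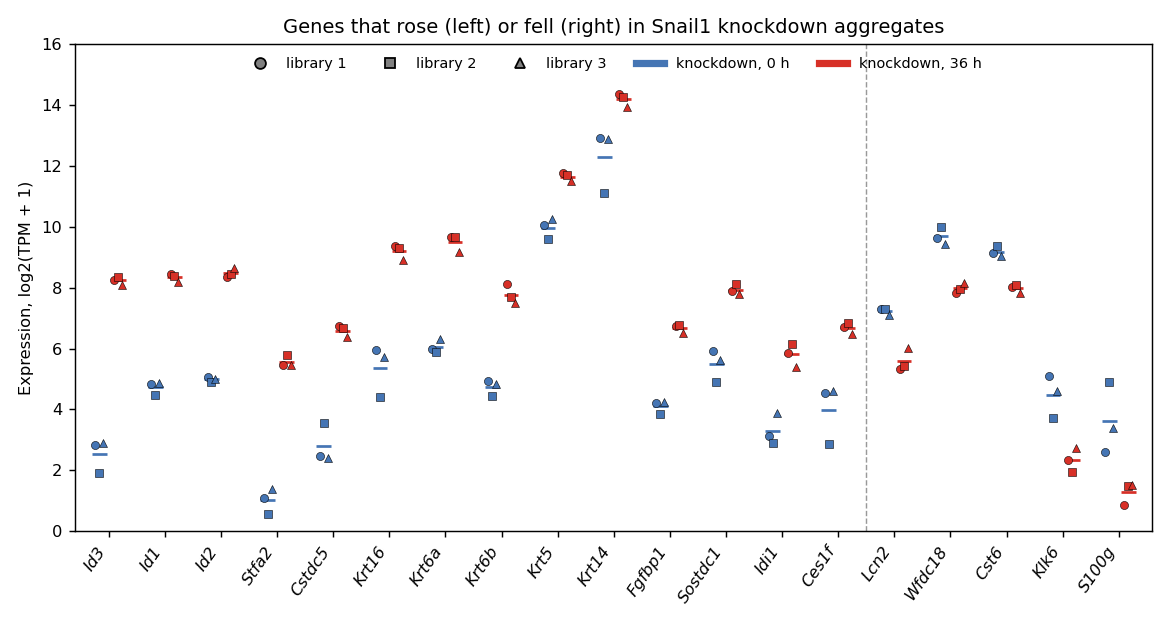
Expression on a log2(TPM + 1) axis (y) of 19 genes (x) in the 3 knockdown libraries at 0 h (blue) and the 3 at 36 h (red), with circles, squares and triangles for libraries 1, 2 and 3 and bars for the means. The 14 genes left of the dashed line rose and the 5 right of it fell, with no overlap between the times in any of the 19, and the square of 0 h library 2 is the lowest blue point in each rise but that of Cstdc5.

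The stefins are small inhibitors of cysteine proteases. In the mouse a cluster of near-identical copies lies on chromosome 16, so the reads of one copy may be counted for another and the values of single members are uncertain. Their promoters are shown because these genes moved together. The first 150 bases of the RefSeq promoter window (250 bases before to 50 after the start of the gene, build GRCm38.p6) are given 5′ to 3′ on the gene's strand, and capitals mark ATTGG, the reverse complement of the CCAAT box, and CACCTG, the reverse complement of the E-box letters CAGGTG that Snail1 is known to bind. The stretches are chr16:36408464-36408613 (minus strand) for Stfa2, chr16:36156561-36156710 (plus) for Stfa2l1, chr16:36455493-36455642 (minus) for Stfa3, chr16:36276898-36277047 (plus) for Stfa1 and chr16:36367671-36367820 (minus) for Cstdc5.
Stfa2: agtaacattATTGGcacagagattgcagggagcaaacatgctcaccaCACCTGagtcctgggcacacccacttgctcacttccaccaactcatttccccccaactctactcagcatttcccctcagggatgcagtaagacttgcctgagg
Stfa2l1: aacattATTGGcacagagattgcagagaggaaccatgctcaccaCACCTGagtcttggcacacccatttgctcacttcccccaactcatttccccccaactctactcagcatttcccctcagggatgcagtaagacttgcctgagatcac
Stfa3: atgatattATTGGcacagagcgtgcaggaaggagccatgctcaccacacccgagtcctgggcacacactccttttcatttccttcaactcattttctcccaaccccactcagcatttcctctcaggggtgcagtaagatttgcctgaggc
Stfa1: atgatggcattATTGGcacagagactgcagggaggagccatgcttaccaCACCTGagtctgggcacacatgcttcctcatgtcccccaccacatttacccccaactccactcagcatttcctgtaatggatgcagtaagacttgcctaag
Cstdc5: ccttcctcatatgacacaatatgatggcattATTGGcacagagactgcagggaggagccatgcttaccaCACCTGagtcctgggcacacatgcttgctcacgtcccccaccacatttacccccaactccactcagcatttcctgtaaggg

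All 5 stretches hold the reversed CCAAT box and 4 of 5 hold the reversed E-box, which is absent from the Stfa3 stretch. Over the whole windows the 10 pairs of these promoters were 78.7% to 91.7% identical, and Csta1, a stefin whose groups overlapped, was 55.7% to 65.3% identical to them. Copies so alike cannot be counted as independent matches. Among all 32851 promoter windows of the same length, 20.2% hold CAGGTG and 37.4% hold CCAAT on either strand.

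Stfa2 (ENSMUSG00000022902) rose from 1.14, 0.49 and 1.64 TPM to 42.6, 54.0 and 42.6 TPM, a change of 4.53 (SE 0.28, adjusted p = 1.01e-05). Cstdc5 rose from 4.56, 10.8 and 4.32 TPM to 105, 100.8 and 81.9 TPM (3.78, adjusted p = 0.000119), and Cstdc6 from 3.47, 7.12 and 6.94 TPM to 107, 89.6 and 74.4 TPM (3.77, adjusted p = 0.000212). In Cstdc5 the 0 h library 2 was the highest of its group, opposite to its place in Stfa2, and the times did not overlap in any of these 3 genes. Stfa2l1 rose from 2.32, 3.76 and 0.37 TPM to 26.5, 34.9 and 30.1 TPM (3.49, adjusted p = 0.00228). Stfa3, the most abundant copy, rose from 18.0, 30.8 and 16.4 TPM to 159, 178 and 149 TPM (2.89, adjusted p = 0.000212). Stfa1 was listed at 0 in all 0 h libraries and at 1.24, 1.75 and 1.18 TPM at 36 h, so no fold is given.

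Of the 24 stefin and cystatin genes in the table, grouped after their values were seen, 10 passed the filter on low values. Of these, 6 rose and 1 fell, where 0.998% and 0.125% of all genes did. Without library 2, 7 rose and 2 fell (1.95% and 0.914% of all genes). With all libraries, the 4 that did not rise were Cst6, Cstb, Cst3 and Csta1. Cst6, cystatin M, which restrains proteases of the cornifying epidermis, fell from 563, 665 and 522 TPM to 256, 270 and 228 TPM (−1.21, adjusted p = 0.00732). Cstb, the general cytosolic stefin, stood at 2258, 2479 and 1875 TPM and then at 1356, 1342 and 1414 TPM, without overlap (−0.68, adjusted p = 0.0576). Csta1 was at 5.69, 36.0 and 8.33 TPM and then at 36.3, 40.5 and 33.4 TPM, with library 2 of 0 h at the 36 h level (adjusted p = 0.196).

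Keratins form the intermediate filaments of epithelia. Krt6a, Krt6b and Krt16 are the keratins that skin induces in wounds and hyperproliferation, and Krt5 and Krt14 are the pair of the basal layer. Krt16 (ENSMUSG00000053797) rose from 60.5, 20.2 and 51.4 TPM to 654, 634 and 477 TPM, a change of 3.84 (SE 0.33, adjusted p = 0.000191). Its partner Krt6a (ENSMUSG00000058354) rose from 62.7, 57.6 and 78.2 TPM to 809, 810 and 579 TPM (3.44, SE 0.19, adjusted p = 3.85e-06), and Krt6b from 29.6, 20.9 and 27.4 TPM to 276, 206 and 180 TPM (3.03, SE 0.21, adjusted p = 3.38e-05). Library 3 was the lowest at 36 h in all 3 and still lay far above every 0 h library. Krt6a and Krt6b are near-copies and may share reads.

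Of the basal keratins, Krt5 and Krt14 were abundant before migration. Krt5 rose from 1062, 768 and 1222 TPM to 3449, 3306 and 2865 TPM (1.68, SE 0.18, adjusted p = 0.00108). Krt14 went from 7662, 2206 and 7621 TPM to 20984, 19468 and 15744 TPM (1.88, SE 0.38, adjusted p = 0.0412), and its 0 h mean and its error rest on library 2. Without that library its rise was 1.28 (adjusted p = 0.000547), and with median-of-ratios scaling the call was lost (1.48, adjusted p = 0.0567). Krt15, a keratin of basal progenitors, rose from 0.57, 0.00 and 0.23 TPM to 6.67, 4.45 and 4.61 TPM (2.31, adjusted p = 0.000486). Krt42 rose too (1.53). The luminal keratins were not called: Krt8 held 57.5 to 208 TPM at 0 h and 175 to 249 TPM at 36 h, and Krt18 held 8.43 to 58.3 TPM and 32.6 to 41.4 TPM. Of 16 keratins measured, 7 rose (0.998% of all genes did) and none fell. Without library 2, 7 rose and 1 fell (1.95% and 0.914% of all genes).

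The list of stratified squamous genes, which holds some of the same keratins and stefins, had 7 of 16 measured members higher and 1 lower (Cst6). Of all genes, 0.998% were called higher and 0.125% lower. The median change of the list was 1.35. Without library 2, 10 were higher and 1 lower (1.95% and 0.914% of all genes). The median was 1.26 without library 2, 1.30 without library 3 and 1.15 with scaling, while the median of all genes moved between 0.51 and 0.00. Sprr1b, a cornified envelope precursor, rose from 9.77, 7.99 and 6.32 TPM to 38.7, 41.4 and 38.4 TPM (2.18, adjusted p = 0.000212). Krtdap, a secreted protein of differentiating keratinocytes, rose from 282, 409 and 216 TPM to 1061, 1082 and 943 TPM (1.81, adjusted p = 0.00298), a call lost with scaling (1.41, adjusted p = 0.122). Neither gene overlapped between the times. Krt10, the keratin of the suprabasal layers, held 54.3 to 61.6 TPM and 49.0 to 56.5 TPM, and the envelope precursor Sprr1a 10.3 to 27.9 TPM and 10.7 to 15.3 TPM. Both overlapped between the times and neither was called. A further 13 of the 29 genes on the list were below the filter.

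Of 19 measured basal mammary genes, 4 rose (Krt5, Krt14, Krt15 and Igfbp3) and none fell, where 0.998% of all genes rose. All 19 changes were positive (74.1% of all genes), with a median of 1.06. Without library 2, 4 were called higher again (1.95% of all genes) and the list median was 0.46. Without library 3, 10 were called higher (9.88% of all genes). The 0.46 stands beside 0.07 for all genes without library 2, whose median over these genes lay at −0.75 relative to the 0 h mean. Igfbp3, a secreted binder of insulin-like growth factors, rose from 214, 89.3 and 254 TPM to 648, 771 and 848 TPM (2.14, adjusted p = 0.00887). Trp63, the master regulator of basal epithelium, held 31.4, 18.2 and 52.8 TPM and then 64.2, 75.04 and 61.0 TPM, without overlap and without a call (adjusted p = 0.171). Acta2, Myh11, Mylk, Cnn1 and Lgr5, also on the list of 24 genes, were below the filter, at no more than 0.59 TPM in any knockdown library.

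**Figure D3:**
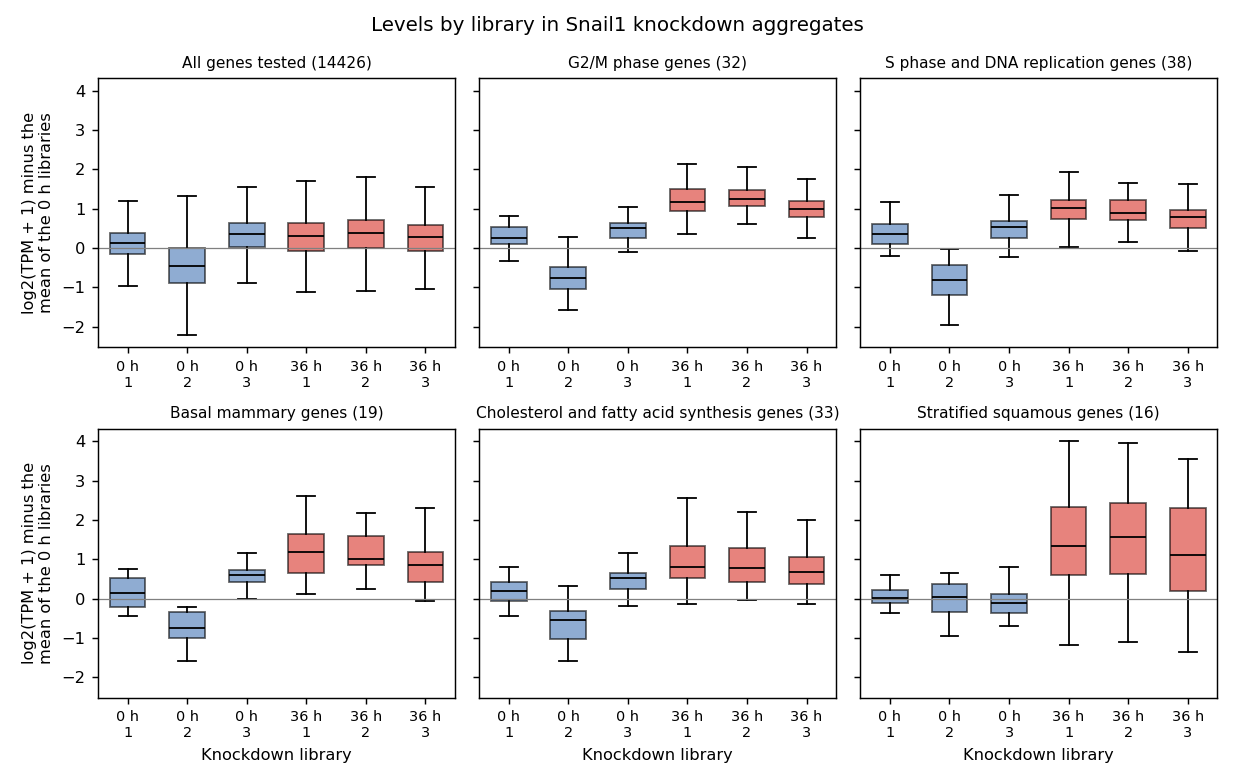
Distribution over genes of log2(TPM + 1) minus the mean of the 3 knockdown 0 h libraries (y axis) in each knockdown library (x axis), for all 14426 genes and for 5 lists (boxes are quartiles with the median as a line, whiskers reach 1.5 times the box). The median of 0 h library 2 lies below 0 in every panel but that of the squamous genes, where it is 0.04 and the medians of the 36 h libraries are 1.33, 1.56 and 1.11.

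Of the genes of mitosis and DNA replication, 3 of 32 and 1 of 38 passed the test. All 32 genes of the G2/M list had a positive change (74.1% of all genes tested did). In 30, all 36 h libraries lay above all 0 h libraries (15% of all genes). The 3 calls stand beside 0.998% of all genes called higher, and the median change was 1.10 against 0.33 for all genes. Plk1, the polo-like kinase of mitotic entry, rose from 25.0, 8.09 and 21.0 TPM to 56.6, 49.4 and 47.8 TPM (1.59, adjusted p = 0.0477; 1.12 without library 2). Cdc25c, the phosphatase that activates the mitotic kinase, rose from 7.54, 4.47 and 7.36 TPM to 21.0, 18.9 and 16.7 TPM (1.44, adjusted p = 0.0089). The kinesin Kif2c rose from 9.51, 4.67 and 8.22 TPM to 20.1, 18.5 and 15.5 TPM (1.21, adjusted p = 0.0457). In all 3 genes library 2 was the lowest at 0 h and the times did not overlap. Of 27 alternative fits, the call of Plk1 was lost in 14, that of Kif2c in 15 and that of Cdc25c in 6. Without library 2, 14 of the 32 were called higher (1.95% of all genes), with a median of 0.71. Without library 3 it was 26 (9.88% of all genes), with a median of 1.36. With scaling it was 10 (1.22% of all genes), with a median of 0.74. In at least 1 fit without a single library none was called.

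Cdc20, which activates the anaphase-promoting complex, shows the weight of library 2 in this list. It stood at 40.1, 10.5 and 38.9 TPM at 0 h and at 98.0, 90.5 and 94.3 TPM at 36 h, a change of 1.84 that missed the threshold (adjusted p = 0.0523). Without library 2 its change was 1.23 and passed (adjusted p = 0.000117). In control Cdc20 stayed between 136 and 170 TPM at both times, above all 6 knockdown libraries. Over the 32 genes the median change in control was −0.08, with no member called, and the median difference of the changes was 1.18, again with no member called (smallest adjusted p = 0.51).

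The upstream windows of the called list members Plk1 and Kif2c are given as examples of the promoter letters that many mitotic genes share, the CHR element TTTGAA and the CCAAT box. The 120 bases before each start are shown on the gene's strand (RefSeq, GRCm38.p6), chr7:122159315-122159434 (plus) for Plk1 and chr4:117178773-117178892 (minus) for Kif2c, with capitals for CCAAT in Plk1 and for TTCAAA, the reverse complement of the CHR, in Kif2c.
Plk1: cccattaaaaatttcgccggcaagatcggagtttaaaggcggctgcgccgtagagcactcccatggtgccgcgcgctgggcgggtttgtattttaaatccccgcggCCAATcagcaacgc
Kif2c: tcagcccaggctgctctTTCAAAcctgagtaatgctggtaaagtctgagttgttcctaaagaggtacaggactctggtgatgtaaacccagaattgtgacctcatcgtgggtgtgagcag

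Of the 28 G2/M genes with a promoter in the table, 22 (78.6%) held the CHR letters on either strand of a 300 base window and 21 (75%) held CCAAT, against 17.9% and 37.4% of all windows. A G2/M gene counted if any of its windows held the letters, while the shares of all windows count each window by itself. In Plk1 the CHR letters lie at bases 31 to 36 of the gene, inside its window but beyond the stretch shown. A match is a description of these letters and shows no binding.

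Of 38 genes of S phase and DNA replication, 37 had a positive change (74.1% of all genes did), 25 had all 36 h libraries above all 0 h libraries (15% of all genes) and 1 was called (0.998% of all genes were called higher). Mcm5, a subunit of the replicative helicase, rose from 24.0, 11.5 and 30.5 TPM to 80.3, 66.0 and 65.6 TPM (1.74, adjusted p = 0.0215). The list median was 0.92, and 0.44 without library 2. The count of rises called was 3 without library 2 (1.95% of all genes), 15 without library 3 (9.88%) and 2 with scaling (1.22%). Pcna, the sliding clamp, held 79.2 to 140 TPM and 106 to 125 TPM, with overlap, and Tk1 held 150, 55.3 and 142 TPM and then 251, 248 and 190 TPM (adjusted p = 0.158).

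All 33 measured genes of cholesterol and fatty acid synthesis had a positive change (74.1% of all genes did). Of these, 16 were without overlap (15% of all genes) and 3 were called higher (0.998% of all genes). The median was 0.78 (0.43 without library 2). The count was 8 without library 2 (1.95% of all genes), 13 without library 3 (9.88%) and 7 with scaling (1.22%). It was 1 at the lowest when a single library was left out. Idi1, which isomerises the isoprenoid building block, rose from 7.72, 6.39 and 13.9 TPM to 56.9, 70.7 and 41.1 TPM (2.50, adjusted p = 0.00322). Mevalonate kinase, Mvk, rose from 14.0, 10.1 and 13.8 TPM to 29.6, 25.6 and 23.1 TPM (0.99, adjusted p = 0.0312; lost with scaling, 0.62, adjusted p = 0.104), a call lost in 15 of 27 alternative fits. The times did not overlap in either gene. In control the list median was 0.54, with no member called.

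Among 40 NRF2 target and detoxifying genes, 5 rose (Ces1f, Ces2g, Aldh3a1, Cyp1a1 and Nqo1) and none fell, where 0.998% of all genes rose. Without library 2, 7 rose and 2 fell (1.95% and 0.914% of all genes). With any single library left out 1 to 13 rose, the 13 without library 3, where 9.88% of all genes did. The call of Cyp1a1 was lost in 16 of 27 alternative fits. Ces1f, a carboxylesterase that cleaves ester drugs and lipids, rose from 22.1, 6.29 and 23.3 TPM to 103, 112 and 88.5 TPM (2.67, adjusted p = 0.00957). In control it did not exceed 25.6 TPM at 0 h or 22.6 TPM at 36 h, a change of −0.21. Its sequence family has close copies, so its level is uncertain. Aldh3a1, an aldehyde dehydrogenase of epithelial surfaces, rose from 823, 328 and 782 TPM to 2534, 2058 and 2217 TPM (1.92, adjusted p = 0.0113). Classical NRF2 targets outside the 5 were not called, among them Hmox1 (171 to 223 TPM at 0 h and 193 to 245 TPM at 36 h), Gclm and Txnrd1.

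Single genes outside these groups also rose. Fgfbp1, a carrier that releases fibroblast growth factors from matrix, rose from 17.7, 13.3 and 18.0 TPM to 106, 108 and 89.2 TPM (2.56, SE 0.18, adjusted p = 3.43e-05). Dmkn, dermokine, a secreted protein of stratified epithelia, rose from 65.8, 50.5 and 69.1 TPM to 286, 304 and 218 TPM (2.10, adjusted p = 0.000212). Selenow, a small selenoprotein, rose from 192, 166 and 178 TPM to 581, 592 and 502 TPM (1.64, adjusted p = 0.000233). It was 1 of 3 selenoproteins called higher of 17 measured, where 0.998% of all genes were. Without library 2, 6 selenoproteins were higher and 1 lower (1.95% and 0.914% of all genes). The times did not overlap in any of these genes, and the change of Selenow in control was 2.01. Adam8 (1.62), Wif1 (1.898), Nrg1 (1.78), Areg (1.15) and the hedgehog targets Ptch1 (1.32) and Gli1 (1.18) were also called, and were picked out after their values were seen. With median-of-ratios scaling neither hedgehog target was called.

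Wfdc18 (ENSMUSG00000000983), a secreted protein with a WAP domain, fell from 798, 1022 and 686 TPM to 226, 247 and 285 TPM (−1.71, SE 0.20, adjusted p = 0.00182), and its relative Wfdc17 from 14.2, 14.5 and 12.8 TPM to 4.09, 2.98 and 3.64 TPM (−1.70, adjusted p = 0.0089). Lipocalin 2, Lcn2 (ENSMUSG00000026822), which binds bacterial siderophores, fell from 157, 155 and 137 TPM to 38.8, 42.4 and 64.0 TPM (−1.64, SE 0.23, adjusted p = 0.00572). The 0 h libraries of these 3 genes lay close together, library 2 included, and all above the 36 h libraries. Klk6, a secreted serine protease, fell from 33.0, 12.3 and 23.5 TPM to 4.01, 2.82 and 5.59 TPM (−2.15, adjusted p = 0.0125).

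S100g, a calcium-binding protein, was not a stable call. It stood at 5.04, 29.1 and 9.52 TPM and then at 0.83, 1.83 and 1.87 TPM (−2.34, adjusted p = 0.0442), its highest value being that of library 2, and the call was lost in 18 of 27 alternative fits. The call of Bhlhe41 (−0.98) was lost in 20 of 27. Cd68, a lysosomal membrane protein on the immune marker list, fell from 9.12, 5.35 and 10.0 TPM to 2.11, 2.34 and 2.29 TPM (−1.46, adjusted p = 0.0158). On the same list Tyrobp was listed at 0 in all 6 libraries. Cd14 (3.96 to 15.5 TPM and 10.2 to 14.2 TPM) and Lyz2 (0 to 2.53 TPM and 1.48 to 2.13 TPM) overlapped between the times. H2ac6, a replication-dependent histone with near-identical copies, fell from 7.14, 7.44 and 4.21 TPM to 1.23, 0.81 and 1.52 TPM (−1.71, adjusted p = 0.0089). Smim29 (−1.19) fell as well.

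Of 15 acute-phase and secreted defense genes, 1 (Lcn2) fell (0.125% of all genes did) and none rose, and 4 changes were positive (74.1% of all genes). In 6 genes all 36 h libraries lay below all 0 h libraries (3.91% of all genes). The list median was −0.43, against 0.33 for all genes. Without library 2, 2 fell (0.914% of all genes) and the median was −0.55. Saa3 held 15.99, 10.9 and 10.3 TPM and then 3.70, 0.67 and 3.65 TPM, without overlap (−1.99, adjusted p = 0.0571), and Slpi, a secreted protease inhibitor, 1993, 1377 and 1652 TPM and then 1196, 1150 and 1058 TPM (−0.55, adjusted p = 0.182). Of 8 milk and secretory genes measured, 2 rose and 1 fell, where 0.998% and 0.125% of all genes did. The rises were Btn1a1, the butyrophilin of milk fat globules (2.35 to 5.26 TPM at 0 h and 14.1 to 21.3 TPM at 36 h, a change of 1.91, adjusted p = 0.00669), and Muc15 (1.38, adjusted p = 0.0206). The fall was Lcn2. A further 9 milk genes were below the filter.

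**Figure D4:**
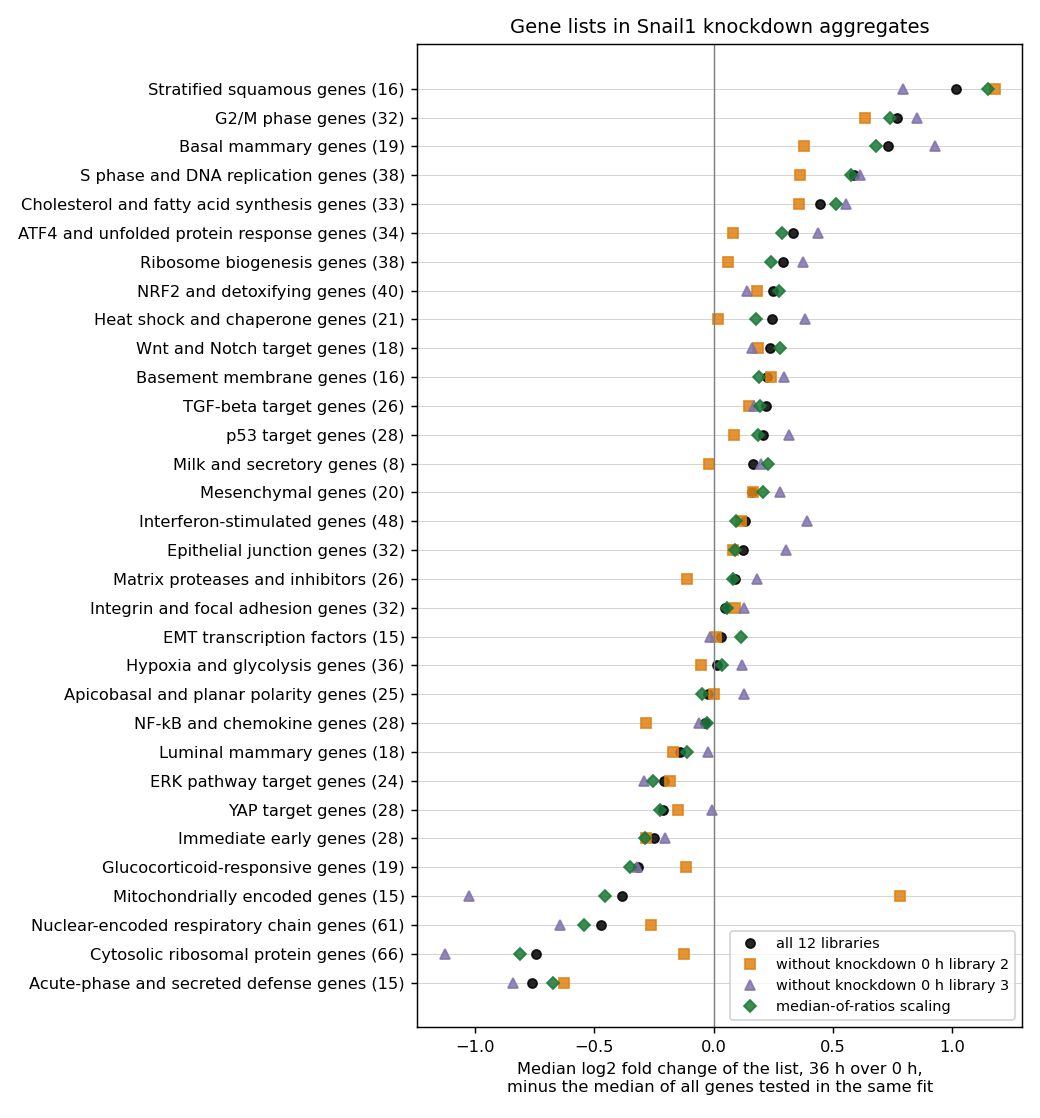
Median log2 fold change from 0 h to 36 h of each list with at least 8 measured genes (number in brackets), minus the median of all genes in the same fit (x axis), with all libraries (circles), without knockdown 0 h library 2 (squares), without library 3 (triangles) and with median-of-ratios scaling (diamonds). The stratified squamous genes stand highest in the fits shown except without library 3, and the mitochondrially encoded genes change side when library 2 is left out.

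Among genes of junctions, adhesion and the epithelial-mesenchymal transition, limma called few, as it did among all genes (1.12%). At that share a list of 15 to 32 genes can easily hold no call. No member was called of 32 epithelial junction genes, 25 polarity genes and 15 EMT transcription factors, of which 6, 4 and 5 had an unadjusted p under 0.05. Over all 14426 genes tested, 2363 had such a p. No member was called either of 20 mesenchymal genes, 32 integrin and focal adhesion genes and 16 basement membrane genes, of which 7, 2 and 4 had an unadjusted p under 0.05. These zeros did not hold in every fit. Without library 3, 9.88% of all genes were called higher and 1.13% lower. In that fit 6 junction, 3 polarity, 2 EMT factor, 6 mesenchymal, 4 integrin and 5 basement membrane genes were called higher. Also in it, 1 polarity gene, 1 EMT factor and 1 mesenchymal gene were called lower. Without library 2, 1 junction gene, 1 polarity gene and 1 EMT factor were called lower (0.914% of all genes). None of the 6 lists had a rise in that fit (1.95% of all genes). The junction gene was Epcam (−0.71, adjusted p = 0.000672). With scaling, 1 junction and 1 mesenchymal gene were called higher (1.22% of all genes) and 1 polarity gene lower (0.444%). Cdh1, E-cadherin and the classical target of Snail1, held 135, 71.0 and 334 TPM at 0 h and 249, 270 and 169 TPM at 36 h, with overlap (0.60, adjusted p = 0.432; 0.08 without library 2, and −0.01 without it and with scaling). Vim, the mesenchymal intermediate filament, held 16.9, 10.5 and 13.7 TPM and then 23.9, 23.9 and 29.6 TPM, without overlap (0.88, adjusted p = 0.106). Fn1, fibronectin, held 27.8, 33.8 and 39.3 TPM and then 24.5, 22.6 and 13.7 TPM, without overlap (−0.73, adjusted p = 0.318).

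The related factor Snai2 was far more abundant than Snai1, at 91.9, 26.9 and 80.1 TPM and then 92.8, 95.4 and 106 TPM (0.73, adjusted p = 0.321; 0.19 without library 2), with library 2 far below the other 5. Twist1 (9.39 to 15.5 TPM and 9.57 to 11.2 TPM) overlapped and Cdh2 (1.26 to 5.02 TPM and 2.51 to 4.37 TPM) did too, and Zeb1 was below the filter. Of 26 matrix proteases and inhibitors, 1 rose (Adam8) and 1 fell (Timp1), where 0.998% and 0.125% of all genes did. Timp1, an inhibitor of metalloproteases, fell from 189, 212 and 163 TPM to 98.7, 89.3 and 111 TPM (−0.91, adjusted p = 0.0312). Without library 2, 2 of the 26 rose and 2 fell (1.95% and 0.914% of all genes). A p above the threshold with 3 libraries a group does not show that these genes did not change.

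Control aggregates changed in the same direction as the knockdown at most of the called genes. In control 52 genes were called over the same 36 h (0.36%), 36 higher (0.25%) and 16 lower (0.111%). Of them, 33 were among the 162, which is 20.4% of the knockdown calls and 63.5% of the control calls, all 33 in the same direction. These counts depend on the spread shared by all 12 libraries. Fitted alone, control had 247 calls and the knockdown 18. Without knockdown 0 h library 2, control had 401 and the knockdown 408. Of the 144 rises, 132 had a positive change in control, where 48.9% of all genes did, with a median of 0.74 against 1.51 in the knockdown. These medians are over genes chosen for their change in the knockdown, which by itself makes the knockdown values larger. The control values of the 18 falls were negative in 16, with a median of −0.85 against −1.67.

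**Figure D5:**
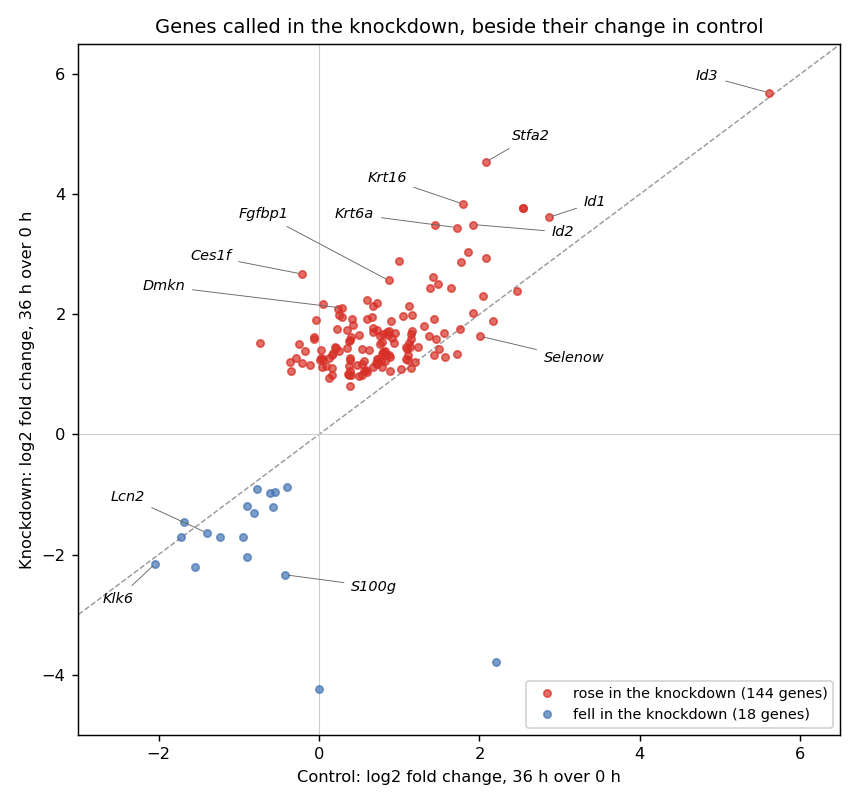
Log2 fold change from 0 h to 36 h in control (x axis) against that in the knockdown (y axis) for the 162 genes called in the knockdown, rises in red and falls in blue, with the dashed line marking equal change. Id3 lies close to the line, Stfa2, Krt16, Krt6a and Dmkn lie above it, and Ces1f lies left of 0 on the control axis.

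The difference of the changes, tested directly as an interaction, passed for 0 of 14426 genes (0%) in limma, with 766 genes at an unadjusted p under 0.05. Its smallest adjusted p was 0.127, shared by Dmkn (a difference of 1.82), Krt6a (1.73), Fgfbp1 (1.70), Id2 (1.57) and the predicted gene Gm56328, which went the other way. Stfa2 followed (2.46, adjusted p = 0.142). Dmkn, Krt6a, Fgfbp1, Id2 and Stfa2 each rose in the knockdown from a 0 h mean below that of control. Dmkn, for example, was at 172 to 198 TPM in control at 0 h and at 223 to 227 TPM at 36 h, and reached 218 to 304 TPM in the knockdown from 50.5 to 69.1 TPM. Fgfbp1 was at 80.1 to 95.3 TPM in control at 0 h and 154 to 162 TPM at 36 h, above the knockdown at both times. Krt6a stood at 579 to 810 TPM in the knockdown at 36 h and at 359 to 400 TPM in control.

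Without knockdown 0 h library 2, 10 genes passed for the difference. They were Cdc20 (1.37), Fgfbp1 (1.57), Dmkn (1.68), Id2 (1.53), Stfa3 (2.17), Krt16 (1.57), Krt6a (1.64), Ces1f (2.32) and Aurka (1.16), which rose more in the knockdown, and Hsd11b1 (−1.48), with adjusted p-values from 0.00712 to 0.0417. Hsd11b1, which regenerates active glucocorticoid, held 63.4, 16.98 and 51.7 TPM and then 10.4, 10.96 and 9.95 TPM in the knockdown, with library 2 nearest to the 36 h level. Its own change in the knockdown was −1.79 (adjusted p = 0.0521) with all libraries and −2.35 (adjusted p = 1.95e-05) without library 2. The part of the different composition of library 2 in these calls was not tested.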

How the data were processed

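RNA from HC11 aggregates was sequenced in 12 libraries, 3 per group, after a stranded mRNA library kit, per the labels' protocols. The authors deposited TPM per gene (57180 genes), with gene lengths in bases, and their own group means, not used here. Per the submitters' processing notes, the build was GRCm39 and the tools included HISAT2 2.2.1, HTSeq, cutadapt 1.9.1, DESeq2 and FastQC, and which of them made the TPM is not given in the sources used here. Each library sums to the same total, so depth is unknown and no counting interval can be given, and a large share taken by a few genes lowers all others.

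Genes with at least 1 TPM in 3 or more of the 12 libraries were tested with limma 3.58.1 (R 4.3.3) on log2(TPM + 1), with a trend in the variance, over 4 groups, and p-values were Benjamini-Hochberg adjusted over 14426 genes. Other pseudocounts, filters, scalings, variance settings, a replicate block and leaving out each library were tried, and array weights were added after seeing the data. The procedure was tested on simulated data. The genes named were Snai1, the 10 largest non-overlapping rises and falls of at least 5 TPM, up to 4 members of each list with 3 or more calls, a set of epithelial and mesenchymal markers and 5 genes of the difference, and others are values only or were picked after their values were seen. The members and lists were chosen with earlier results of these data known. Promoters came from RefSeq (GRCm38.p6), which held 97 of the called genes. Results for some genes are not reported here.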

Additional observations from a re-analysis of the deposited data

How the results depend on the processing

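Depth is unknown, so low values carry an error that could not be measured, and 3 libraries a group limit every test. No pairing of the knockdown libraries by replicate number was detectable. Same-numbered libraries deviated with correlations of 0.0407, −0.0678 and −0.201, and differently numbered ones with −0.102 to 0.178. With 3 libraries a group, these values cannot show whether the libraries were paired. A fit with the replicate block called 40 genes in the knockdown, 1 in the difference and 6 in control. Leaving out 1 library gave 46 to 1572 calls in the knockdown, 0 to 10 in the difference and 18 to 401 in control. Within the knockdown groups alone 18 genes were called, and 247 within control alone. The replicate block gave 51 knockdown and 4 control calls with median-of-ratios scaling, and 2 and 0 within the groups compared. Scaling alone gave 1 call in the difference and 88 in control, quantile normalization 1 and 111, and no filter 1 in the difference. Without knockdown 0 h library 2 and with scaling, 409, 5 and 395 genes were called in the knockdown, the difference and control, and the change of Cdh1 turned to −0.0103 (adjusted p = 0.992). Without libraries 2 and 3 of that group, 281 knockdown and 475 control genes were called, the remaining library being assumed to vary like the other groups. Array weights, added after seeing the data, gave 444, 39 and 2685. Of 38 called genes chosen by the naming rule, 34 remained with scaling, 38 without library 2, 19 to 25 without a 36 h library and 9 within the knockdown groups alone. None reversed, which their lack of overlap between the times largely fixed in advance. The cause of the shifts in these counts was not tested.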

Other observations

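The 66 cytosolic ribosomal protein genes had a median change of −0.41, with 4 positive changes and no member called by limma (5 at an unadjusted p under 0.05). Their median was −0.05 without knockdown 0 h library 2, −0.62 without library 3 and 0.27 in control. The 61 nuclear-encoded respiratory chain genes had a median of −0.14, with 23 positive changes and no member called (13 at an unadjusted p under 0.05), and a median of −0.19 without library 2. Over all 14426 genes tested, 74.1% had a positive change and 2363 an unadjusted p under 0.05. The 15 mitochondrially encoded genes had a median of −0.06 with all libraries and 0.86 without library 2, so their direction rests on that library. The 38 ribosome biogenesis genes, which act upstream in making ribosomes, had a median of 0.62, and 0.14 without library 2.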
